A study of Homo sapiens with 12 samples.

Results

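The comparison described here sets 2 libraries of OVK18 cells carrying sgWRN2, a guide against WRN, beside 2 libraries of the same line carrying sgCh2-2, a control guide that cuts an intergenic site on chromosome 2. These 4 of the study's 12 libraries were taken by their column labels from the deposited gene counts, with the spike-in features left out. OVK18 is an ovarian cancer line, and every group of the study was Cas9-expressing and collected 72 h after transduction. Of the other groups, OVK18 with sgWRN3 (another guide against WRN) and the colorectal cancer line SW48 with sgCh2-2 or sgWRN2 are used below, each with 2 libraries, A and B. The labels do not say whether A and B were separate cultures, so the p-values measure only the spread between these samples, which may be technical.

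WRN encodes a helicase and exonuclease of the RecQ family that unwinds unusual DNA structures, and cancer cells with microsatellite instability are known to depend on it. EGR1, EGR2 and EGR3 are zinc finger transcription factors of the immediate-early class, transcribed within minutes of a growth factor or stress signal through MAP kinases. The serum response factor SRF, bound to CArG boxes, and CREB, bound to cyclic AMP response elements, are their textbook activators. TXNIP and ARRDC4 are alpha-arrestins that restrain glucose uptake, and the sugar-sensing factor MondoA drives both through E-box-like elements.

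Promoters are shown for 4 of the genes that rose, to let the letters be read beside the values that follow. The sequences are from RefSeq on build GRCh38.p14, 5′ to 3′ on the strand of the gene. For EGR1 (chr5:138465229-138465478, plus strand) and EGR2 (chr10:62816367-62816616, minus strand, the last of 3 starts in the table) the 250 bases before the start are printed, with capitals for CArG boxes and for TGACG, the core of the cyclic AMP response element, on either strand.
EGR1: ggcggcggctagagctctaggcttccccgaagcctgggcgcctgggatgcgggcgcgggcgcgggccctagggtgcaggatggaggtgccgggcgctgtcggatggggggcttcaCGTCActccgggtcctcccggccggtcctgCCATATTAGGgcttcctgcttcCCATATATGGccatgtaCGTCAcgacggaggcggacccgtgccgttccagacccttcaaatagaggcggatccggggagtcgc
EGR2: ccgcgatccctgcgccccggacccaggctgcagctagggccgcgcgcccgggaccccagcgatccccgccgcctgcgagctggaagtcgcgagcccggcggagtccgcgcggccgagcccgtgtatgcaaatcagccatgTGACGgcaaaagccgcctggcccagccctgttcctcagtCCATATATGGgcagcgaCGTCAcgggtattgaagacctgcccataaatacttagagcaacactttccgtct
For TXNIP (chr1:145996605-145996804, minus strand) and ARRDC4 (chr15:97960478-97960677, plus strand) the bases from 225 to 26 before the start are printed, with capitals for CACGNG on either strand.
TXNIP: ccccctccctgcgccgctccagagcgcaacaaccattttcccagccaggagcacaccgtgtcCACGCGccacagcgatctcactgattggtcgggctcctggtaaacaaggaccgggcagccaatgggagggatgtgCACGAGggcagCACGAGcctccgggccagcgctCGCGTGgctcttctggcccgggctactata
ARRDC4: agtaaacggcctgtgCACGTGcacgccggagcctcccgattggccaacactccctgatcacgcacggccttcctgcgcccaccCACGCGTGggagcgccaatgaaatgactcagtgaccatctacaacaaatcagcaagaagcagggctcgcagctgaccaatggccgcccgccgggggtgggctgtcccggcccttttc

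Over 250 bases on both strands, EGR1 held 2 CArG boxes and EGR2, at this start, 1, which only 1.16% of 35114 promoters in the table did. Each held 2 matches to TGACG, present in 21.2% of promoters. The other starts of EGR2 in the table held no CArG box and no TGACG. These shares count each promoter in the table, whereas EGR2 is shown at the start that held the matches. The promoters of JUNB and PLK2 held 1 TGACG each and no CArG box, and JUNB also a TATA box (TATAAA, in 10.7% of promoters). None of the 4 held the full element TGACGTCA (1.65% of promoters), the ETS core CCGGAAG (8.52%), the AP-1 site TGANTCA (6.57%) or the EGR site GCGTGGGCG (0.721%), at any of the 6 starts in the table. CACGNG, searched after the values were seen, is in 26.7% of promoters. TXNIP held 4 matches at the start shown and none at its other start, and ARRDC4 held 3, of which 2 overlap, beside 1 AP-1 match. The EGR1 promoter held 1 CACGNG and the EGR2 promoter shown 2, not marked as such (1 overlaps a TGACG match), PLK2 1 and JUNB 2. The promoter of EGR3 was not analysed here. A match describes letters only, and no match says only that these letters are not in this window.

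Total counts ran from 17600573 to 32581625 over the 6 OVK18 libraries, and 14199 of 25343 genes had enough counts to test. Replicate libraries of each OVK18 group differed beyond counting error (chi-square per gene 13.0 to 24.9), most in the sgWRN2 pair. Levels are read counts scaled to the normalised library size (CPM), given per library or as mean ± SD over 2 libraries (n = 2). Fold changes are log2 values from edgeR's quasi-likelihood test with its standard error (SE), and a gene is said to rise or fall where its Benjamini-Hochberg adjusted p over all genes tested is under 0.05. In bulk RNA, fewer cells with a transcript and less transcript per cell cannot be told apart.

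WRN, the targeted gene, was lower in both sgWRN2 libraries than in both controls. Its level was 32.0 and 39.8 CPM in control A and B and 22.0 and 21.0 CPM with sgWRN2, against 22.2 and 22.97 CPM with sgWRN3. The log2 difference between sgWRN2 and the control was -0.74 (SE 0.162) and missed the threshold in edgeR's test (adjusted p = 0.0658). Over the alternative settings it ran from -0.87 to -0.55, with adjusted p from 0.000127 to 0.472. In SW48 the same guide took WRN from 91.2 and 112 CPM to 37.2 and 34.1 CPM (log2 fold change -1.51, adjusted p = 0.000461), and the difference between the lines was not called (0.77, adjusted p = 0.358). The protein was not measured.

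With sgWRN2, 113 of 14199 genes changed in OVK18 (0.796%), of which 76 rose (0.535%) and 37 fell (0.261%). At an unadjusted p under 0.05 there were 1974 genes. With sgWRN3, against the same controls and in the same fit, 0 genes were called and 116 had an unadjusted p under 0.05. Over the 76 and 37 genes, chosen on sgWRN2, the median log2 difference for sgWRN3 was 0.08 and -0.02. Of the genes that rose with sgWRN2, immediate-early and arrestin genes are described before other genes. Then follow the 30 genes, EGR2 among them, that stood under 1 CPM in the controls. The 37 that fell had fold changes between -0.42 and -2.04, with a median of -0.67, against 1.27 for the 76 that rose.

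**Figure D1:**
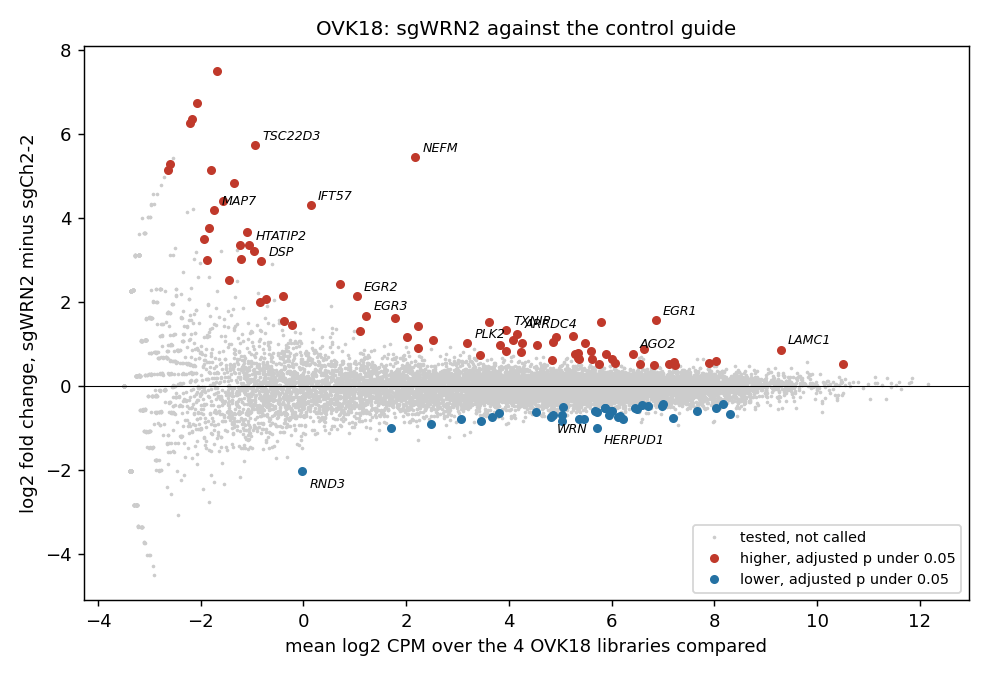
Each point is a tested gene, with its mean log2 CPM over the 4 OVK18 libraries on the horizontal axis and its log2 fold change, sgWRN2 minus sgCh2-2, on the vertical axis; 76 genes rose (red), 37 fell (blue) and grey genes were not called. Names mark the 14 genes called whichever of the 4 libraries was left out, and RND3, HERPUD1 and the uncalled WRN; the highest folds stand at the lowest levels.

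The calls depended on single libraries. Of the 113 genes, 14 stayed past the threshold whichever of the 4 libraries was left out, all of them higher: EGR1, EGR2, EGR3, PLK2, TXNIP, ARRDC4, LAMC1, AGO2, NEFM, IFT57, TSC22D3, DSP, HTATIP2 and MAP7. The count was 18 without control A, 23 without control B, 142 without sgWRN2 A and 41 without sgWRN2 B. No gene fell without control A or without sgWRN2 B, 2 fell without control B, and 88 fell without sgWRN2 A. With size factors computed by the RLE method in place of TMM, 78 genes rose and 20 fell.

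Immediate-early genes were higher with sgWRN2, led by the EGR factors. Of 32 on the list, 5 rose (EGR1, EGR2, EGR3, JUNB and PLK2) and none fell, with a median log2 fold change of 0.37 over the list against -0.002 over all genes tested. In 23 of 32 both sgWRN2 libraries lay above both controls, as did 2725 of all 14199 genes (19.2%). The median of the list was -0.02 for sgWRN3, against the same controls. The list was chosen with these results known, so its direction is a description.

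EGR1 stood at 68.3 and 66.7 CPM in the controls and 207 and 192 CPM with sgWRN2, against 72.9 and 69.5 CPM with sgWRN3. The sgWRN2 libraries were far apart from all others. EGR1 rose by 1.56 (SE 0.0903, adjusted p = 6.87e-06), and its fold change stayed between 1.52 and 1.63 when single libraries were left out. EGR2, which acts in myelination and T cells, stood at 0.932 and 0.929 CPM in the controls and 4.59 and 3.56 CPM with sgWRN2 (sgWRN3 1.31 and 1.09). It rose by 2.14 (SE 0.243, adjusted p = 0.00212). EGR3, a relative often induced by EGR1, stood at 1.09 and 1.42 CPM in the controls and 4.49 and 3.51 CPM with sgWRN2 (sgWRN3 2.00 and 1.75). It rose by 1.67 (SE 0.191, adjusted p = 0.00212), and none of the control values reached the sgWRN2 range.

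**Figure D2:**
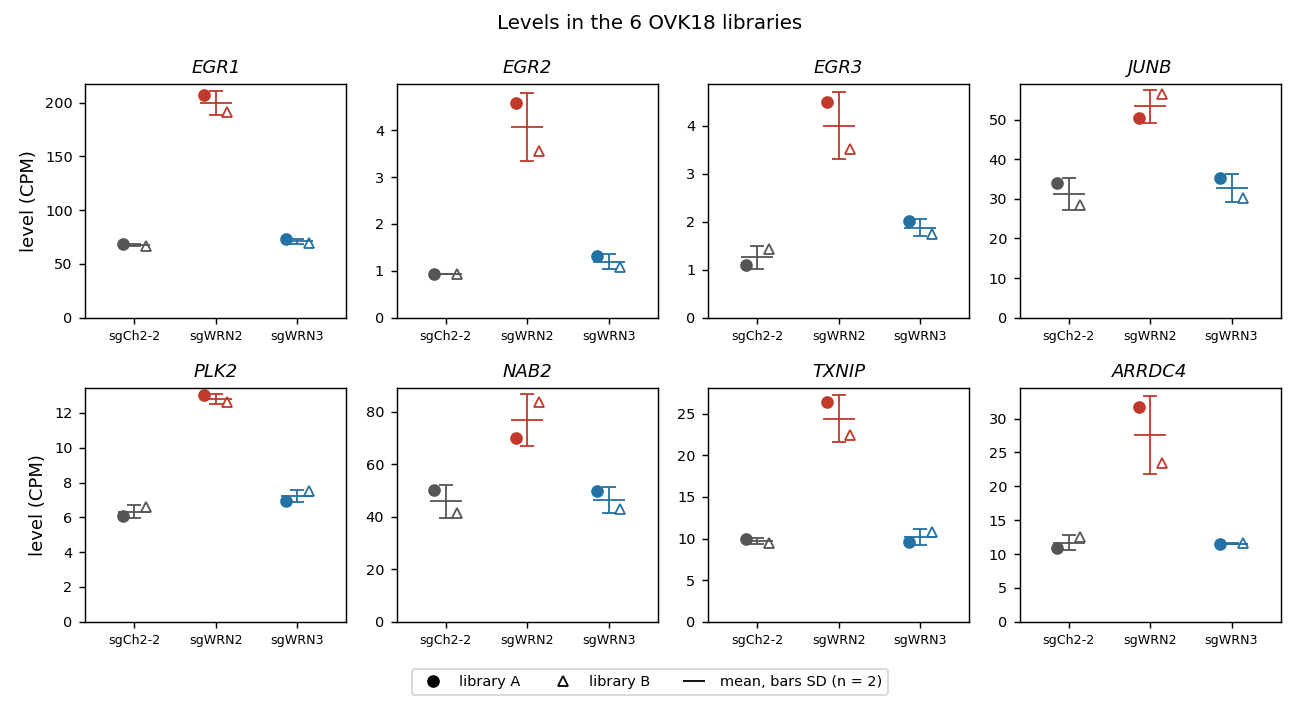
Levels in CPM (vertical axes, starting at 0) of 8 genes in the 6 OVK18 libraries, by guide; circles are library A, triangles library B, and horizontal marks with bars the mean and SD of 2 libraries. In each panel both sgWRN2 libraries lie above the 4 others, and EGR3 is the panel in which sgWRN3 stands farthest above the control for its scale.

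PLK2, a kinase induced both by growth factors and by p53, stood at 6.06 and 6.59 CPM in the controls and 13.0 and 12.6 CPM with sgWRN2 (sgWRN3 6.97 and 7.49). It rose by 1.02 (SE 0.110, adjusted p = 0.00174). JUNB, an AP-1 subunit, stood at 34.0 and 28.4 CPM in the controls and 50.5 and 56.4 CPM with sgWRN2 (0.78, SE 0.159, adjusted p = 0.0490). Its call was lost without either control (adjusted p = 0.223 without A and 0.393 without B) and without either sgWRN2 library (0.0588 and 0.220). For PLK2 and JUNB alike, both sgWRN2 libraries lay above all 4 others.

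The other 27 immediate-early genes were not called, and 5 of them were below 0. FOS, the AP-1 partner of JUN, had 5.24 and 4.55 CPM in the controls and 8.62 and 7.23 CPM with sgWRN2 (0.71, adjusted p = 0.0627). JUN had 10.9 and 10.5 CPM against 15.9 and 15.5 CPM (0.55, adjusted p = 0.105). For FOSB, NR4A1, IER2 and MYC the log2 differences were 0.72, 0.46, 0.31 and 0.29, with adjusted p from 0.247 to 0.450. In each of these 6 genes both sgWRN2 libraries lay above both controls. Below 0 were KLF2 (-0.28, both sgWRN2 libraries below both controls), MCL1 (-0.12), KLF6 (-0.04) and NR4A3 (-0.04), with overlapping groups in the last 3, and KLF4, which was close to 0 CPM in all 6 OVK18 libraries.

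NAB2, which binds EGR factors and represses their targets, had 50.1 and 41.4 CPM in the controls and 69.9 and 83.8 CPM with sgWRN2. It rose by 0.75 (SE 0.148, adjusted p = 0.0425), a call kept without sgWRN2 A (0.0433) and lost without any of the other 3 libraries (0.161 to 0.360). It was named after its values were seen. VGF, a secreted neuronal peptide precursor known as a growth factor response gene, stood at 3.03 and 2.601 CPM in the controls and 6.80 and 8.38 CPM with sgWRN2. It rose by 1.43 (SE 0.214, adjusted p = 0.00991), which was 0.101 without control A, 0.161 without control B and 0.0707 without sgWRN2 B. The MAPK feedback genes, which dampen the ERK pathway, had 0 of 26 past the threshold and a median of 0.21. Of these, EPHA2 (0.66, adjusted p = 0.084), SPRY4 (0.32), ERRFI1 (0.33) and SPRED2 (0.28) had the smallest p.

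The alpha-arrestins TXNIP and ARRDC4 rose together. TXNIP stood at 9.98 and 9.47 CPM in the controls, 26.4 and 22.4 CPM with sgWRN2 and 9.54 and 10.8 CPM with sgWRN3. It rose by 1.33 (SE 0.116, adjusted p = 0.000237). ARRDC4 stood at 10.9 and 12.5 CPM in the controls, 31.7 and 23.5 CPM with sgWRN2 and 11.5 and 11.6 CPM with sgWRN3, and rose by 1.24 (SE 0.145, adjusted p = 0.00212). Both groups of libraries were apart in each gene, and the capitals in their promoters above mark the E-box-like letters. The transcripts of the Mondo factors themselves were not called: MLX, the shared partner, had a log2 difference of -0.06 and MLXIPL, which encodes ChREBP, of -0.25, with overlapping groups in both. No value is given here for the gene of MondoA itself. The small list of 5 had 2 genes that rose and a median of -0.002.

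Genes of the cell surface, matrix and signalling were among the other rises. LAMC1, the gamma chain common to most laminins, stood at 461 and 464 CPM in the controls and 847 and 839 CPM with sgWRN2 (sgWRN3 478 and 483), and rose by 0.87 (SE 0.0913, adjusted p = 0.00159). AGO2, the slicing argonaute of RNA interference, stood at 65.6 and 64.4 CPM in the controls and 110 and 111 CPM with sgWRN2 (sgWRN3 67.8 and 63.1), and rose by 0.77 (SE 0.0928, adjusted p = 0.00229). In both genes the 2 libraries of a guide nearly coincided. The other 12 tested microRNA processing genes were not called, with DICER1, which cuts microRNA precursors, at 0.43 (adjusted p = 0.150).

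TIMP1, an inhibitor of matrix metalloproteinases, had 36.4 and 29.1 CPM in the controls and 85.9 and 101 CPM with sgWRN2 (1.52, SE 0.184, adjusted p = 0.00229; 0.0541 without control B). Its relative TIMP2 went the other way without a call, at 60.2 and 53.7 CPM against 39.7 and 39.3 CPM (-0.53, adjusted p = 0.0627). MED12L, a paralogue of a Mediator subunit, had 6.45 and 7.77 CPM in the controls and 20.8 and 20.2 CPM with sgWRN2 (1.52, SE 0.199, adjusted p = 0.00532; 0.125 and 0.0541 without control A or B). RASA2, a GTPase-activating protein that turns off RAS, had 23.2 and 27.4 CPM against 63.8 and 50.9 CPM (1.18, SE 0.170, adjusted p = 0.00731; 0.139 and 0.0521 without control A or B). In all 4 genes the guide groups were apart.

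FHDC1 and PROCR, with few counts, also rose. FHDC1, a formin that links actin and microtubules, had 1.71 and 2.11 CPM in the controls and 4.59 and 7.40 CPM with sgWRN2 (1.62, SE 0.251, adjusted p = 0.0112). PROCR, the receptor of activated protein C, had 0.932 and 1.67 CPM against 2.98 and 3.67 CPM (1.30, SE 0.219, adjusted p = 0.0187). Both lost the call without control A (0.193 and 0.139) and without sgWRN2 B (0.0671 and 0.107), and FHDC1 also without control B (0.110).

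All 18 tested replication-dependent histone genes had a log2 difference above 0, with a median of 0.66, and 2 rose. Only 4 of the list had a mean of at least 5 CPM over all 12 libraries, with a median of 0.62. Without control B, 2 of 19 tested were below 0, and without sgWRN2 B 5 of 20. HIST1H1C, a linker histone, had 30.6 and 29.6 CPM in the controls and 49.6 and 51.8 CPM with sgWRN2 (0.75, SE 0.115, adjusted p = 0.0106). HIST1H2BD had 2.56 and 2.69 CPM against 5.75 and 6.08 CPM (1.16, SE 0.202, adjusted p = 0.0220). Both calls were lost without control A (0.139 and 0.247), control B (0.146 and 0.190) or sgWRN2 B (0.0667 and 0.106). Most of these transcripts lack a poly-A tail, and the libraries were made from mRNA. In 11 of 18 both sgWRN2 libraries lay above both controls.

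Of the 76 genes that rose, 30 stood under 1 CPM in the mean of the controls; 2326 such genes were tested and none of them fell. With sgWRN2 these 30 reached a median of 0.983 CPM, from 0.197 to 28.2 CPM. For each of the 30, both sgWRN2 libraries lay above both sgWRN3 libraries as well as both controls. A gene this low that passes the filter on counts could hardly be called in the other direction, so the lack of falls is no result. Of the 30, 7 kept the call whichever of the 4 libraries was left out.

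NEFM, the medium neurofilament, was highest among them, with 0.660 and 0.619 CPM in the controls, 30.2 and 26.1 CPM with sgWRN2 and 1.57 and 2.41 CPM with sgWRN3. It rose by 5.45 (SE 0.319, adjusted p = 6.87e-06), and 8 other tested intermediate filament genes were not called. IFT57, a subunit of the intraflagellar transport complex that builds cilia, had 4 and 8 counts in control A and B and 125 and 72 counts with sgWRN2 (6 and 11 with sgWRN3). In CPM these are 0.202 ± 0.0653 and 4.16 ± 0.308 (log2 fold change 4.31, SE 0.265, adjusted p = 7.95e-06). The other 26 tested intraflagellar transport genes were not called. TSC22D3, which encodes the glucocorticoid-induced leucine zipper, had 1 and 1 counts in the controls and 66 and 35 with sgWRN2. The ratio of its levels was 62.7, with an exact 95% counting interval from 16.9 to 525 that covers counting error only.

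**Figure D3:**
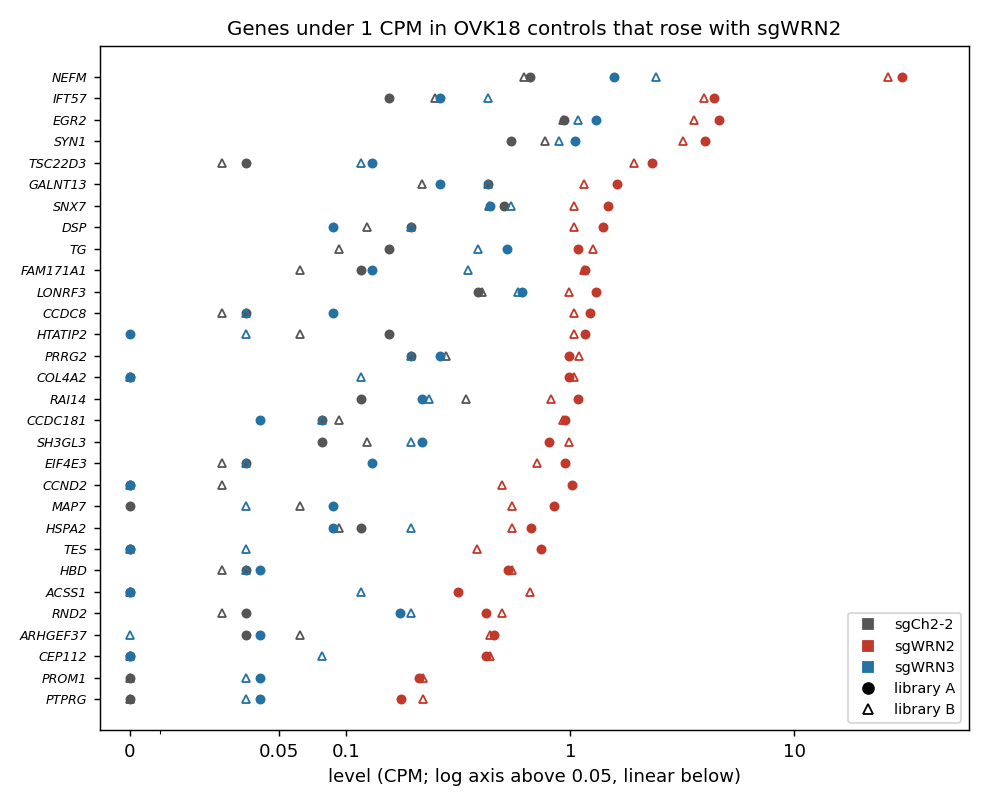
Levels in CPM (horizontal axis, logarithmic above 0.05 and linear below) of the 30 genes that rose from under 1 CPM in the OVK18 controls, in the 6 OVK18 libraries; circles are library A and triangles library B. Both sgWRN2 libraries (red) lie to the right of the control (grey) and sgWRN3 (blue) libraries in every row.

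For 6 of the 30 genes both controls were at 0 counts, so their levels are set against a floor of 3 counts over both libraries (0.0517 CPM). These folds take the sgWRN2 counts as exact, so they are not lower limits of an interval. COL4A2, a basement membrane collagen chain, had 28 and 19 counts with sgWRN2, 19.4-fold above the floor. TES, a focal adhesion protein, had 21 and 7 counts, 11.6-fold above it. ACSS1, a mitochondrial acetyl-CoA synthetase, stood 8.69-fold above the floor and CEP112, a centrosomal protein, 8.27-fold. PROM1, the stem cell surface protein CD133, stood 4.14-fold above it and PTPRG, a receptor phosphatase, 3.72-fold. Each of these 6 calls was lost without control A or without control B (adjusted p from 0.0535 to 0.348).

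The filter on counts used all 12 libraries, so a gene under 1 CPM in the OVK18 controls could pass through its level in SW48. It could also pass through its level with sgWRN2 itself, and could then hardly be called other than higher. PROM1, PTPRG and ACSS1 did not pass the filter in a fit of the 6 OVK18 libraries alone. How many of the 2326 such genes were abundant in SW48 is not given, so the split below is a description. The 30 genes fell into unlike groups by their level in SW48. In 15 of them SW48 controls stood at 10 CPM or more, among them IFT57 (57.4 CPM), DSP (1102 CPM), the desmosome protein desmoplakin, CCND2 (524 CPM), a D-type cyclin, MAP7 (114 CPM), a microtubule protein, EIF4E3, FAM171A1, HTATIP2 and TES. None of these 15 was called higher in SW48 with sgWRN2, where their log2 fold changes lay between -0.19 and 0.40. With sgWRN2 the level in OVK18 was between 0.111 and 7.25% of that in SW48 controls. Another 10 genes stood under 1 CPM in SW48 controls too, and 7 of them rose in SW48 with the same guide: NEFM, CCDC8, CCDC181, COL4A2, GALNT13, SH3GL3 and TG. CCDC8, part of a complex that stabilises microtubules, went from 0.0388 and 0.0310 CPM to 1.23 and 1.04 CPM in OVK18 and from 0.0641 and 0.0540 CPM to 1.51 and 0.765 CPM in SW48. TG encodes thyroglobulin, and SH3GL3 an endophilin of synapses.

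Because many of these genes are abundant in SW48, transcripts of that line were counted in the OVK18 libraries. The 78 genes at 50 CPM or more in SW48 controls and at most 3 counts in the OVK18 controls summed to 0.0111 and 0.00678% of their SW48 level in control A and B, 0.0368 and 0.0308% with sgWRN2 and 0.0122 and 0.0135% with sgWRN3. EIF4E3, CCND2, MAP7 and TES gave 101 of the 187 counts of sgWRN2 A and 39 of the 100 of sgWRN2 B. The choice of genes keeps the control shares low, and the sgWRN3 shares were not used in it. Outside these 4, HEXA, a lysosomal enzyme, had 16 counts over both sgWRN2 libraries, GPX1, a glutathione peroxidase, 15, PROM1 10, AUTS2 9 and PTPRG 9. With sgWRN3 the counts of these 5 were 0, 3, 2, 6 and 2. Of the 78, 8 stood over 500 CPM in SW48, and beside CCND2 none of them had more than 3 counts over both sgWRN2 libraries. The part that reads from another library play in these counts was not tested.

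Among the 37 genes that fell were a few members of stress and metabolic pathways. HERPUD1, which takes part in the disposal of misfolded proteins at the endoplasmic reticulum, stood at 84.7 and 64.2 CPM in the controls, 38.03 and 36.2 CPM with sgWRN2 and 98.6 and 75.4 CPM with sgWRN3. It fell by 1.003 (SE 0.151, adjusted p = 0.00991). It was the only 1 of 24 tested chaperone and folding genes of that compartment past the threshold, and the median of the list was -0.32, with 21 of 24 below 0. In 16 of 24 both sgWRN2 libraries lay below both controls, as did 3038 of all 14199 genes (21.4%). The call of HERPUD1 was lost without control A (0.156) and without sgWRN2 B (0.0804).

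PDK1, a kinase that keeps pyruvate out of mitochondria, and BNIP3, a mitophagy receptor, were the 2 of 35 tested hypoxia and glycolysis genes that fell. PDK1 had 55.2 and 52.8 CPM in the controls and 29.4 and 33.0 CPM with sgWRN2 (-0.79, SE 0.129, adjusted p = 0.0163). BNIP3 had 179 and 202 CPM against 117 and 105 CPM (-0.78, SE 0.131, adjusted p = 0.0225). BNIP3L, its relative, had a difference of -0.62 (adjusted p = 0.0946), whereas the median of the list was -0.06. Of 39 tested ATF4 stress genes, MTHFD2, a mitochondrial enzyme of folate metabolism (-0.60, adjusted p = 0.0476), and STC2, a secreted stanniocalcin (-0.70, adjusted p = 0.0492), fell, and 35 were below 0 with a median of -0.23. These 4 calls were each lost without control A, control B or sgWRN2 B (adjusted p from 0.0593 to 0.437), and those of PDK1 and STC2 also without sgWRN2 A (0.0689 and 0.0833).

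S phase genes were lower across the list. Of 56 tested, 53 were below 0, with a median of -0.28, and CDC6 and MCM3 fell. CDC6, which loads the replicative helicase at origins, had 61.9 and 53.7 CPM in the controls and 35.6 and 31.1 CPM with sgWRN2 (-0.79, SE 0.123, adjusted p = 0.0112). MCM3, a subunit of that helicase, had 117 and 107 CPM against 81.4 and 83.0 CPM (-0.45, SE 0.0898, adjusted p = 0.0448), and MCM4 and RRM2 had differences of -0.43 and -0.48 (adjusted p = 0.0559 and 0.0796). CDC6 lost the call without control A (0.177) or sgWRN2 B (0.0946), and MCM3 without any 1 of the 4 libraries (0.0887 to 0.424).

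Mitotic genes were lower in 68 of 69 cases, with a median of -0.35. None passed in edgeR's test in the main fit, or in that fit with a block for the letters A and B as labelled. The smallest adjusted p was 0.0951, for MKI67, the proliferation marker, at 362 and 374 CPM in the controls and 286 and 281 CPM with sgWRN2 (-0.38). In 62 of 69 both sgWRN2 libraries lay below both controls. DESeq2 called 7 of them lower, and edgeR without the filter on low counts 5, in runs that called more genes of all kinds. In SW48 the same guide gave a median of -0.95, and 58 of 69 fell, as did 1.95% of all genes tested. Of the S phase list 37 of 56 fell in SW48, with a median of -0.68. The S phase median for sgWRN3 in OVK18, against the same controls, was -0.09, and the mitotic median -0.08.

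**Figure D4:**
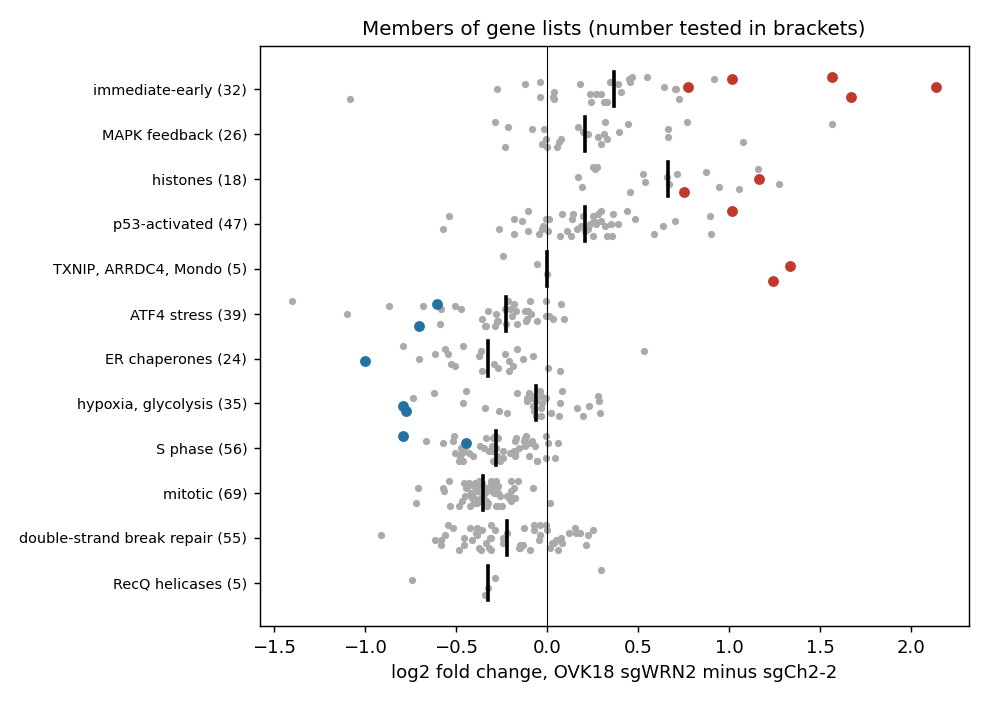
Log2 fold change in OVK18, sgWRN2 minus sgCh2-2 (horizontal axis), of the tested members of 12 gene lists, with the number tested in brackets; black bars are medians, red and blue points genes that rose or fell, and grey points genes not called. Nearly all mitotic and S phase genes lie left of 0 and all histone genes right of it.

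Of 47 tested p53-activated genes PLK2 was the only 1 that rose, and the median was 0.21. CDKN1A, the cyclin-dependent kinase inhibitor p21, stood at 179 and 173 CPM in the controls and 253 and 295 CPM with sgWRN2 (0.64, SE 0.138, adjusted p = 0.0628). GDF15, a secreted stress factor, had 11.7 and 9.72 CPM against 17.98 and 21.8 CPM (0.89, adjusted p = 0.0855), and GADD45A, a growth arrest protein, 16.9 and 17.0 CPM against 29.02 and 21.6 CPM (0.59, adjusted p = 0.0855). For these 3 genes both sgWRN2 libraries lay above both controls. MDM2, the ligase that degrades p53, had 735 and 833 CPM in the controls and 1015 and 768 CPM with sgWRN2, so the groups overlapped (0.19, adjusted p = 0.639). In SW48, 15 of the 47 rose with sgWRN2, with a median of 0.44, where 1.13% of all genes tested rose. The effect of sgWRN2 differed between the lines by a call for 1 of the 47, and for 0.303% of all genes. The interaction for CDKN1A was -0.77 and was not called (adjusted p = 0.203).

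Of 55 tested double-strand break repair genes, none passed in edgeR's test in the main fit, 40 were below 0 and the median was -0.22. DESeq2 called 3 of them lower, as did edgeR without the filter on low counts, in runs that called more genes of all kinds. FANCD2 and FANCI, which form the clamp of the Fanconi pathway, had differences of -0.43 and -0.41. Among the 5 RecQ helicases, BLM had -0.34 and RECQL -0.28, and RECQL5 0.29 with overlapping groups. The largest falls by the naming rule outside these lists were RNASE4, a secreted ribonuclease (-1.01, adjusted p = 0.0380), LOC100506730 (-0.91), RNF170, a ubiquitin ligase of the endoplasmic reticulum (-0.84), PKI55 (-0.84), TMEM133 (-0.80), REEP1, which shapes that membrane (-0.80), NFIB, a transcription factor (-0.75), and C4orf46 (-0.74). Each of the 8 lost its call without control A, without control B and without sgWRN2 B (adjusted p from 0.0583 to 0.363).

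RND3, which lowers actomyosin tension, fell by 2.04 (SE 0.326, adjusted p = 0.0143). Its level was 1.55 and 1.98 CPM in the controls, 0.386 and 0.493 CPM with sgWRN2 and 0.348 and 0.543 CPM with sgWRN3. Both WRN guides thus gave values below both controls, which they share. The difference of sgWRN3 from these controls was -1.97 and was not called in edgeR's test (adjusted p = 0.677). The guides did not differ by a call (-0.07, adjusted p = 0.977). Leaving out any 1 library ended the call (adjusted p from 0.0571 to 0.152).

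Of 31 gene lists, 17 had no member past the threshold. Those for YAP and SRF targets, mismatch repair, heat shock, cholesterol synthesis, interferon-stimulated genes, NF-kB targets, apoptosis, Wnt targets, ribosomal proteins, ribosome biogenesis, the BEX family, complement regulators and the epithelial to mesenchymal state had medians between -0.16 and 0.34. The highest was that of the 3 complement regulators, where CD59 stood at 146 and 140 CPM in the controls and 186 and 176 CPM with sgWRN2 (0.34, adjusted p = 0.120). Ribosome biogenesis genes were above 0 in 33 of 39 cases with a median of 0.10.

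The WRN guides were then compared directly in OVK18. Between sgWRN2 and sgWRN3, 106 genes differed (0.747%), of which 62 were higher and 44 lower with sgWRN2, and 2059 had an unadjusted p under 0.05. The highest by the naming rule were NEFM (3.81), EGR2 (1.78), EGR1 (1.49), MED12L (1.46), TIMP1 (1.38) and VGF (1.37). Of the 106, 10 were called whichever of the 4 libraries was left out: EGR1, TXNIP, ARRDC4, LAMC1, AGO2, NEFM, IFT57, TSC22D3, DSP and HTATIP2. The count without single libraries ran from 11 (without sgWRN3 A) through 27 (sgWRN3 B) and 52 (sgWRN2 B) to 71 (sgWRN2 A). EGR3 was higher too (1.11, adjusted p = 0.0166), a call kept only without sgWRN2 B. WRN did not differ by a call between the guides (-0.07, adjusted p = 0.908).

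Chaperones of the endoplasmic reticulum were lower with sgWRN2 than with sgWRN3. Of 24 tested, 7 were lower by a call: HSPA5, DNAJB11, DNAJC3, CRELD2, MANF, HERPUD1 and XBP1. HSPA5, the main chaperone of the compartment, stood at 1556 and 1150 CPM in the controls, 928 and 841 CPM with sgWRN2 and 1932 and 1436 CPM with sgWRN3 (sgWRN2 minus sgWRN3 -0.93, adjusted p = 0.0165). MANF, a secreted protein of the same response, stood at 149 and 107 CPM, 72.9 and 74.9 CPM and 201 and 132 CPM in that order (-1.17, adjusted p = 0.0132). XBP1, the transcription factor of the unfolded protein response, differed by -0.75 (adjusted p = 0.0367). The list's median against the shared controls was -0.32 for sgWRN2 and 0.22 for sgWRN3. Within the control pair library A was higher than B for these genes, as it was within the sgWRN3 pair. Without sgWRN3 A the 7 adjusted p were 0.0549 to 0.341, and without sgWRN2 B HERPUD1 alone kept its call (0.0325). FICD, which modifies HSPA5, and KSR2, a MAP kinase scaffold, were also lower (-1.40 and -1.14), each without a call once any 1 library was left out.

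The same guide in SW48 shares no library with the OVK18 comparison. There, 160 genes rose (1.13%) and 277 fell (1.95%). Of the 76 that rose in OVK18, 22 also rose in SW48, which is 28.9% of the former and 13.8% of the latter. Of the 37 that fell, 16 also fell in SW48 (43.2% of the former and 5.78% of the latter), and no gene changed in opposite directions by calls. The fold change in SW48 had the same sign for 67 of 76 and 33 of 37 genes, where 53.3% of all genes were above 0 and 43.9% below 0 in SW48. Over 9146 genes, the A minus B differences of the sgWRN2 pairs correlated at 0.719 between the lines. Within SW48, those of sgWRN2 and the control correlated at -0.449. The part that structure shared by these libraries plays in the agreement was not tested. Beside NEFM, the shared rises include LAMC1 (0.91 in SW48), AGO2 (0.74), PLK2 (0.79), ARRDC4 (0.62), HIST1H1C (0.60) and LNPEP, an aminopeptidase of insulin-responsive vesicles (0.68). The shared falls include CDC6 (-0.89), MCM3 (-0.52), PDK1 (-0.66) and TMEM133 (-0.93).

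**Figure D5:**
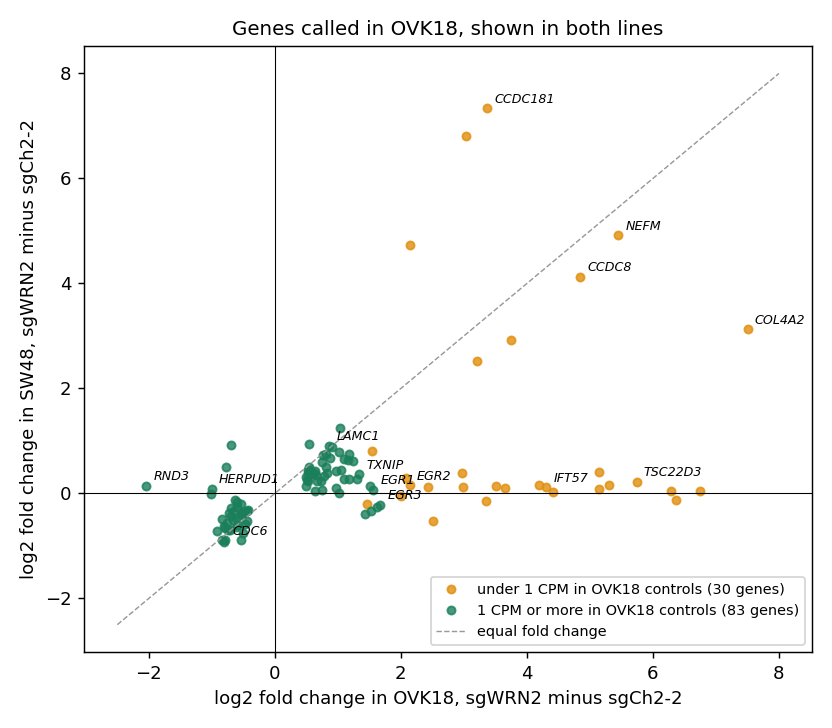
Log2 fold changes of the 113 genes called in OVK18, sgWRN2 minus sgCh2-2, in OVK18 (horizontal axis) and SW48 (vertical axis); orange points stood under 1 CPM in the OVK18 controls (30 genes), green points at 1 CPM or more (83 genes), and the dashed line marks equal fold changes. EGR1, EGR2, EGR3 and many orange points lie near 0 on the SW48 axis, while NEFM and CCDC8 lie near the dashed line.

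The effect of sgWRN2 differed between the lines by a call for 43 genes (0.303%), of which 22 were higher and 21 lower in OVK18. The EGR genes were among the higher. EGR1 had a difference of 1.49 (SE 0.125, adjusted p = 0.000264): in SW48 it stood at 427 and 422 CPM in the controls and 455 and 439 CPM with sgWRN2. EGR3 (1.88, adjusted p = 0.00424) stood at 60.8 and 66.9 CPM and at 54.6 and 55.7 CPM in SW48, and EGR2 (1.98, adjusted p = 0.0226) at 6.86 and 5.56 CPM and at 6.23 and 7.72 CPM. TXNIP differed by 0.97 (adjusted p = 0.0221). Of the 43, 11 were called whichever of the 8 libraries was left out, EGR1 and EGR3 among them, whereas EGR2 and TXNIP lost the call without some (adjusted p up to 0.152 and 0.128).

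Most other differences between the lines were genes near silence in 1 line. On the higher side, PROM1, CCND2, IFT57, MAP7, FAM171A1 and HTATIP2 (5.13, 5.06, 4.18, 4.02, 3.56 and 3.50) were low in OVK18 controls and abundant in SW48. On the lower side, GYG2, NGFRAP1, FAM101B, CBS, WDR35 and MSN (-7.22, -4.64, -4.16, -4.08, -3.47 and -2.89) were abundant in OVK18 and near silent in SW48 controls, where they rose. CBS, an enzyme of cysteine synthesis, for example stood at 0.320 and 0.108 CPM in the SW48 controls and at 4.36 and 2.93 CPM with sgWRN2, against 175 and 166 CPM in the OVK18 controls. In each line, then, near-silent genes that were higher with sgWRN2 include genes abundant in the other line. The filter over all 12 libraries lets genes near silence in 1 line pass through their level in the other, so this is a description. IFT57, NGFRAP1, FAM101B, CBS, GYG2 and HTATIP2 kept the call without any of the 8 libraries, FAM171A1 without 7, MAP7 without 5, CCND2 without 4 and MSN without 1, and PROM1 and WDR35 lost it without any 1. Where a control pair is at 0, as for PROM1 in OVK18 and GYG2 in SW48, the fitted value depends on the prior count.

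Of the cell type markers with enough counts to test, none was called. Tested were 9 of 9 epithelial, 7 of 11 Mullerian and ovarian and 6 of 10 fibroblast markers. Of the leukocyte, endothelial and intestinal markers 2 of 8, 0 of 6 and 5 of 8 were tested. The untested markers could not be called. Summed over each list in the 6 OVK18 libraries, 9 epithelial markers stood at 18.1 to 22.3 CPM and 11 Mullerian and ovarian markers at 84.3 to 91.7 CPM, with PAX8, WFDC2 and MUC16 at or near 0 and HOXA10, HOXA11 and PAX2 giving most of it. The 10 fibroblast markers stood at 415 and 423 CPM with sgWRN2 and 451 to 486 CPM in the other libraries, nearly all of it COL3A1 (455 and 417 CPM in the controls, 388 and 383 CPM with sgWRN2). The 8 leukocyte markers stood at 4.31 to 6.53 CPM, mostly CD68, with CD3E at 0. The 6 endothelial and 8 intestinal markers stayed under 0.156 and 0.403 CPM. PAX8, WFDC2 and MUC16 were thus low in every group alike, whereas HOXA10 and HOXA11 stood at 34.5 and 39.6 CPM in the mean of the controls. The epithelial list was mixed too, with KRT18 at 11.7 and EPCAM at 0.442 CPM there, so the lists give no verdict on cell identity.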

How the data were processed

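RNA from Cas9-expressing lines was sequenced as mRNA libraries, and per the submitters' processing notes the reads were aligned to hg19 with STAR 2.5 and FPKM values made with Cufflinks 2.2.1. The authors deposited raw gene counts, used for all main results, and FPKM values, used on a log2 scale in alternatives only. The annotation and strand setting are not given in the sources used here. The 92 spike-in features held no counts and were left out. Total counts per OVK18 library are 17600573 to 32581625.

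Genes with enough counts by edgeR's filter (14199) were fitted over all 12 libraries with TMM scaling and edgeR 4.0.16's quasi-likelihood test in R 4.3.3, with contrasts for sgWRN2 against sgCh2-2, against sgWRN3, and against the effect in SW48. P-values were adjusted by Benjamini-Hochberg over all genes tested. DESeq2 1.42.0 and limma 3.58.1 served as alternatives, and the scripts were tested on simulated data. Named genes are up to 12 of the highest and 12 of the lowest fold changes past the threshold (6 and 6 for the other contrasts) with a mean log2 CPM of at least 1 and libraries on 1 side, up to 4 of each list by smallest p, WRN, CDKN1A and MDM2; other genes were named after their values were seen. The members and lists were chosen with earlier results of these data known. Promoter sequences come from a RefSeq table.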

Additional observations from a re-analysis of the deposited data

Results flagged for a closer look

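The effect of sgWRN2 differed between OVK18 and SW48 by edgeR's test of the difference itself for 21 of the genes named here, given as the log2 effect in OVK18 minus that in SW48. The values were 1.49 for EGR1, 1.98 for EGR2, 1.88 for EGR3, 0.97 for TXNIP, 1.82 for VGF, 1.88 for FHDC1 and 0.73 for MKI67. Among genes near silence in the OVK18 controls they were 5.13 for PROM1, 5.06 for CCND2, 4.18 for IFT57, 4.02 for MAP7, 3.56 for FAM171A1 and 3.50 for HTATIP2. Below 0 they were -7.22 for GYG2, -4.64 for NGFRAP1, -4.16 for FAM101B, -4.08 for CBS, -3.47 for WDR35, -2.89 for MSN, -2.18 for RND3 and -0.98 for LAMA3, a laminin chain. MKI67 fell in SW48 (-1.10) and had -0.38 in OVK18.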

How the results depend on the processing

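With 2 libraries a group, the number of genes called depended on the fit more than the fold changes did. For sgWRN2 against sgCh2-2 (113 genes), DESeq2 gave 423, of which 104 were among the 113, no filter on low counts 439, a fit of the 6 OVK18 libraries 30 and of the 4 libraries compared 42. Leaving out single libraries gave 18 to 142. For sgWRN2 against sgWRN3 (106 genes), DESeq2 gave 514, no filter 518, limma on log2(FPKM + 1) 202, the 6 OVK18 libraries 25, the groups compared 17, and leaving out single libraries 11 to 71. For the difference between the lines (43 genes), DESeq2 gave 121, no filter 128, the groups compared 26, and leaving out single libraries 15 to 37. With RLE scaling 79.6% of calls were higher, against 67.3% with TMM, and against sgWRN3 70.5% against 58.5%. The MDM2 difference of 0.19 ran from -0.01 without sgWRN2 A, a reversal, to 0.39 without sgWRN2 B. The letters did not pair the libraries compared in 1 way: over 9146 genes, the A minus B differences of sgWRN2 correlated at -0.505 with those of the control and -0.626 with those of sgWRN3, whereas control and sgWRN3 correlated at 0.717. With the letter as a replicate block the 3 comparisons gave 38, 31 and 17 genes. With the letters of the sgWRN2 pair crossed, a pairing chosen after seeing the data, they gave 1801, 1790 and 332 of 14199 genes tested. In the main comparison 52 of 69 mitotic, 25 of 56 S phase and 18 of 55 repair genes were then lower. Of the p53-activated genes 16 of 47 were higher. The causes were not tested.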
